A study of Mus musculus with 50 samples.

Results

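The neuromuscular junction is the synapse at which a motor neuron drives a muscle fibre, and the genes described here encode the receptor side of it and the signal that builds it: the acetylcholine receptor subunits Chrna1, Chrnb1, Chrnd, Chrne and Chrng, and the agrin-MuSK pathway genes Agrn, Lrp4, Musk, Dok7 and Rapsn that cluster the receptor under the nerve. Their DNA methylation was read in mouse soleus. Members were taken as the CpGs that the deposited table assigns, by Ensembl identifier, to the promoter or the gene body of these 10 genes. This gave 66 CpGs in 17 clusters at 9 genes, of 205304 CpGs in 51038 clusters at 13722 genes. Rapsn, the scaffold protein that holds the receptor in place, had no CpG in the table and is not described further. A cluster is a run of neighbouring CpGs no more than 100 bp apart, over which the calls of the measured CpGs were added.

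The samples were soleus muscles of 12-week-old C57BL/6 mice of both sexes, homozygous for a floxed Dnmt3a allele. Mice without Cre are called WT, and mice that also carried Cre under the muscle creatine kinase promoter (mCK-Cre) are called mD3AKO. That promoter acts late in muscle differentiation and in skeletal muscle and heart, so satellite cells and the non-muscle cells of the tissue may keep Dnmt3a, which encodes a de novo DNA methyltransferase. This was not measured here. Mice were taken at rest, or 10, 30 or 60 min after a 30 min treadmill run. Reduced representation bisulfite sequencing (RRBS) reads methylation near CCGG sites. The table held 44 of the 50 samples: in the order rest, 10, 30 and 60 min, WT had 5, 5, 5 and 6 samples and mD3AKO had 5, 5, 7 and 6. Each sample was 1 animal and held between 12819404 and 41285655 CpG calls, and every CpG had at least 8 calls in every sample. The deletion of Dnmt3a cannot be read from these data. Of the 557 clusters that differed between the genotypes, 554 were lower in mD3AKO.

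At birth the receptor changes from a form with the gamma subunit (Chrng) to one with the epsilon subunit (Chrne), while alpha, beta and delta stay. Agrin (Agrn), released by the nerve, binds LRP4 on the fibre. LRP4 then activates the kinase MuSK, DOK7 binds and sustains MuSK, and rapsyn gathers the receptors. In the fibre, transcription of many of these genes is concentrated in the few nuclei under the nerve. Soleus DNA comes from all nuclei of the tissue, so a level here is an average over them, and a different share of a cell type and a different methylation within a cell type cannot be told apart.

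Sequences are shown for 3 of the stretches with measured CpGs in gene bodies, 1 each of Musk, Chrng and Chrne, and for the promoters of Chrnb1, which held measured CpGs, and of Chrne, which holds a motif known from synaptic genes. They are from RefSeq's GRCm38 assembly (GRCm38.p6, the build the authors call mm10), are written 5′ to 3′ on the strand of the gene, and have the measured CpGs in capitals, except in the Chrne promoter, where the capitals mark the motif CCGGAA. RefSeq promoter entries were matched for 7 of the 10 genes, and not for Lrp4, Chrnd or Rapsn. No sequence of Lrp4 or Chrnd is therefore shown, and the motif counts leave out their CpGs, among them the 29 of Lrp4. Of the measured CpGs of these 7 genes, 14 of 36 lay in a CCGG and 2 of 36 in CCGGAA or its reverse complement, which is the core of the N-box that ETS factors are known to bind at synaptic genes. Over the 80625 measured CpGs of the 6 chromosomes examined, 29% lay in CCGG and 4.44% in CCGGAA.

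Musk, chr4:58351491-58351608, intron, plus strand: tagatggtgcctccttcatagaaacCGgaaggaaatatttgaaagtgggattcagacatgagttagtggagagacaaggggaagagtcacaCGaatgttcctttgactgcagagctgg
Chrng, chr1:87210260-87210386, intron, plus strand: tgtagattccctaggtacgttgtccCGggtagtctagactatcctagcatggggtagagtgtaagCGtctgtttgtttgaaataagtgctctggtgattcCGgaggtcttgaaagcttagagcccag
Chrne, chr11:70616577-70616639, intron, minus strand: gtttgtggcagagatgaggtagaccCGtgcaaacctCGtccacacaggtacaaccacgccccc
Chrnb1 promoter, chr11:69795938-69796187, minus strand: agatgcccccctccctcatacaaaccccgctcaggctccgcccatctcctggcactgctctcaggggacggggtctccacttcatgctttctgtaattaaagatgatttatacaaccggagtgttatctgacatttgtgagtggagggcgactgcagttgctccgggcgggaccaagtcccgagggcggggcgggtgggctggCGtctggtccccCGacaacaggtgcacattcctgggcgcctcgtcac
Chrne promoter, chr11:70619195-70619444, minus strand: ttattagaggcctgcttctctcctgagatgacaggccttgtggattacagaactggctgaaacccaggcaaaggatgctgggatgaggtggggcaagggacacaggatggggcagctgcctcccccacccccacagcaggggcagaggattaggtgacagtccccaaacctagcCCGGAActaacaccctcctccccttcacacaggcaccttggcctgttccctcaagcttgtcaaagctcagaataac

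The first CpG of the Musk stretch is the one in CCGGAA, and in Chrng it is the last of the 3. Chrne holds the only promoter of the 7 genes with CCGGAA in the 250 bases upstream of its start, and none of the CpGs of that window was measured. CCGGAA, on either strand, was in 12% of all 32851 RefSeq promoter windows of that length, and the E-box letters CANNTG, on either strand, in 66.2%. The Chrnb1 promoter window holds 14 CpGs, of which 2 were measured. A match of letters is not a bound site.

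**Figure D1:**
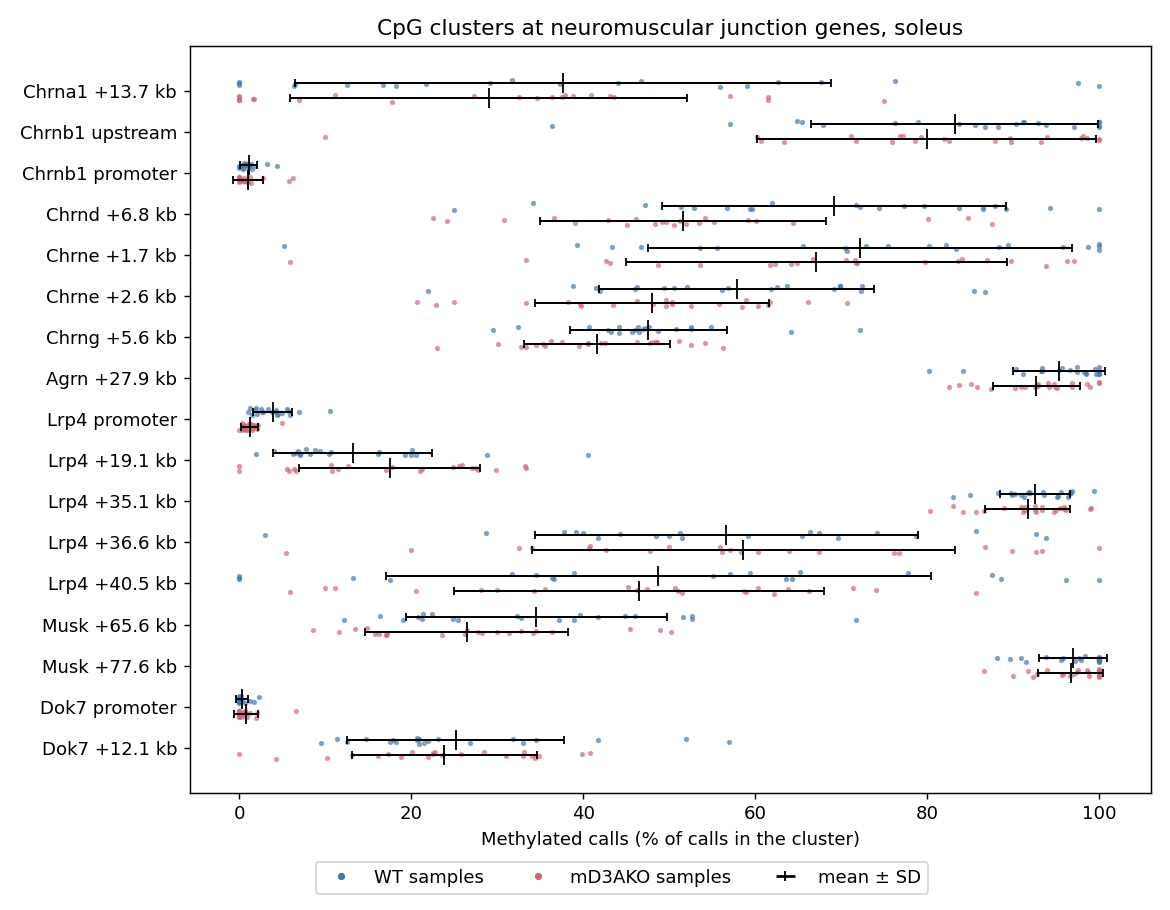
Methylated calls as a percentage of all calls in each of the 17 clusters (x axis) for every WT (blue) and mD3AKO (red) sample, with the mean and SD of the genotype in black. Names give the gene and the distance of the cluster from its start site. The promoter clusters of Lrp4, Chrnb1 and Dok7 lie near 0, and most gene body clusters are spread widely between samples.

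Level differed far more among the 17 clusters than between the genotypes. The WT mean was under 5% in 3 clusters, all of them at promoters, between 5 and 40% in 4, between 40 and 75% in 6, and 75% or more in 4. The CpGs lay mostly within genes: 42 of 66 in introns, 16 in coding exons, 1 in a UTR and 7 upstream of a start. Of the 17 clusters, 14 had a lower mean in mD3AKO (82.4%), against 62.4% of all clusters, and the median difference was -2.64 percentage points, against -0.455 over all clusters. The members were not matched to all clusters for level, which limits how far a level can fall in points. Whether the 17 lost more than other clusters was not tested. By the fitted odds ratio 12 of 17 were lower, and of the single CpGs 37 of 66 had a lower and 27 a higher mean, with a median difference of -0.207 points. One cluster of 17, at the Lrp4 promoter, passed the test of the genotype difference over all times, which tests the mean of the 4 mD3AKO groups against that of the 4 WT groups (edgeR quasi-likelihood test with Benjamini-Hochberg adjusted p under 0.05 over all clusters). Of all 51038 clusters, 1.09% passed. Unadjusted p was under 0.05 at 4 of the 17, and at 9.57% of all clusters.

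**Figure D2:**
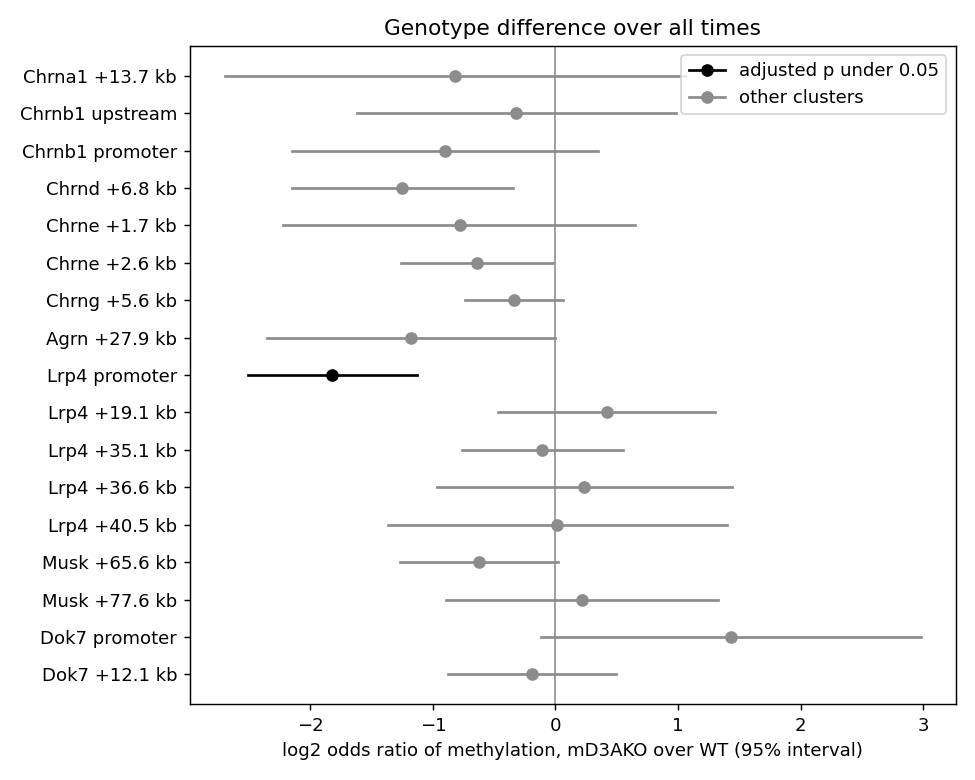
The log2 odds ratio of methylation in mD3AKO over WT, with its 95% interval (x axis), for each cluster. Only the interval of the Lrp4 promoter, at -1.82, belongs to a cluster that passed the adjusted test.

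Lrp4 encodes the receptor for agrin on the fibre, a member of the low-density lipoprotein receptor family. It lies on chr2:91457511-91513779 (GRCm38, plus strand), and its promoter cluster spans chr2:91457291-91458769, from 220 bases upstream of the start into the first intron. RRBS measured 17 of its CpGs. The table lists 141 CpGs in that cluster, and this number equals the count of CpGs in the genome's run of neighbouring CpGs for 96.7% of the CpGs examined. In the 21 WT samples the level ran from 1.02% through a median of 3.82% to 10.5%, and in the 23 mD3AKO samples from 0% through 1.08% to 4.93%. The groups overlapped, but 22 of 23 mD3AKO samples were below the WT mean. The WT mean was 3.86% ± 2.27 (SD, n = 21) and the mD3AKO mean 1.22% ± 1.00 (SD, n = 23), a log2 odds ratio of -1.82 (SE 0.34, adjusted p = 0.00168). Depth at this cluster was between 987 and 3044 calls in a sample.

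The difference lay at 3 CpGs of the 17. These sit 177, 173 and 158 bases upstream of the start, at positions 91457334, 91457338 and 91457353 of chromosome 2, and their call numbers were nearly identical in each sample (42 to 208 calls), so that most of their calls come from the same reads. At -177 methylation was 15.7% ± 15.9 in WT and 2.32% ± 3.68 in mD3AKO (SD, n = 21 and 23, edgeR adjusted p = 0.0204 over all CpGs). At -173 it was 25.2% ± 17.8 in WT and 5.14% ± 5.45 in mD3AKO (adjusted p = 0.00573). At -158 it was 14.2% ± 11.9 and 3.12% ± 5.21 (adjusted p = 0.0849), which did not pass. Those at -177 and -173 were the 2 member CpGs called, of 66, against 0.284% of all 205304 CpGs. The CpG further upstream, at -220, held 2.31% ± 3.41 in WT and 3.52% ± 4.52 in mD3AKO. The 13 CpGs in the first intron, from 885 to 1258 bases downstream of the start, together held 0.672% ± 0.828 and 0.456% ± 0.562.

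**Figure D3:**
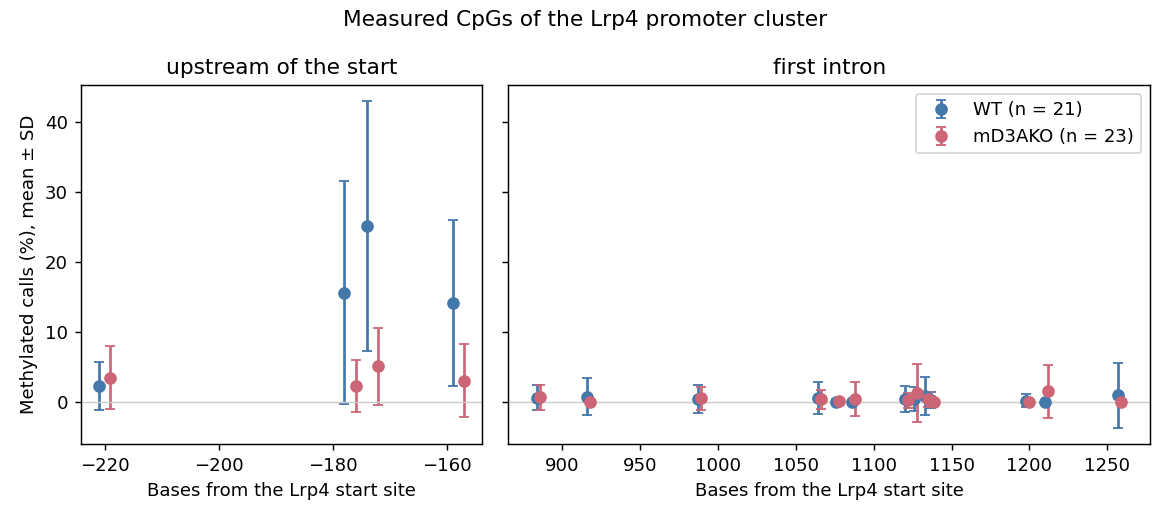
Mean and SD of methylation (y axis, %) of each measured CpG of the Lrp4 promoter cluster against its distance in bases from the start site (x axis), in WT (blue) and mD3AKO (red). The 3 CpGs between -177 and -158 hold the difference, and the CpG at -220 and those in the first intron lie near 0 in both genotypes.

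Taken over the 3 CpGs together, the WT samples at rest held 36.3, 4.31, 4.96, 4.00 and 21.4%, and those at 10 min 59.4, 21.7, 9.73, 10.0 and 4.90%. The WT samples at 30 min held 12.2, 38.2, 20.1, 22.1 and 9.09%, and the 6 at 60 min ran from 9.28% through a median of 19.1% to 24.4%. WT was therefore variable, with single animals from 4.00 to 59.4%. The mD3AKO samples at rest held 0.218, 3.23, 8.81, 1.69 and 2.08%, and those at 10 min 0, 4.47, 4.17, 3.97 and 14.5%. The 7 mD3AKO samples at 30 min ran from 1.00% through 3.25% to 9.11%, and the 6 at 60 min from 0% through 0.177% to 4.68%. Of the 23 mD3AKO samples, 16 were below every WT sample, and all 23 were below the WT median of 15.2%. Likewise, 11 of the 21 WT samples were above every mD3AKO sample. The 3 CpGs were singled out because they held the difference, so these counts describe it and are not a test. Over the whole promoter cluster, 11 of the 23 mD3AKO samples were below every WT sample. The 4 mD3AKO samples at 0% had 147 to 291 calls, which allows a level of up to 1.03 to 2.04% (counting error only, and calls at neighbouring CpGs share reads). In females the mean was 24.9% ± 15.8 in WT and 3.72% ± 2.74 in mD3AKO, and in males 12.5% ± 8.06 and 3.34% ± 4.38. Whether the sexes differed was not tested, and with sex in the model the log2 odds ratio of the cluster was -1.84 (adjusted p = 0.00166).

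**Figure D4:**
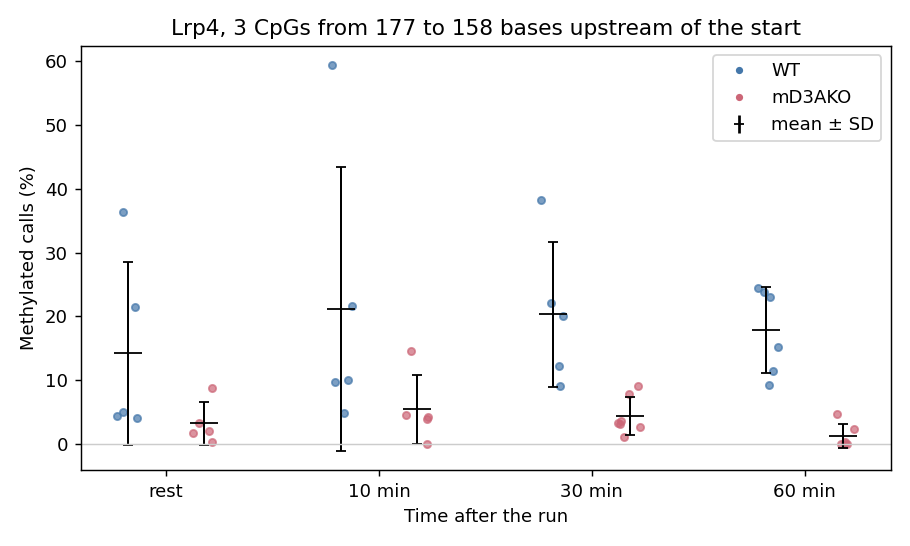
Methylated calls (y axis, %) over the 3 CpGs from 177 to 158 bases upstream of the Lrp4 start, by time after the run (x axis), for each WT (blue) and mD3AKO (red) sample with the mean and SD of the group. The mean was higher in WT than in mD3AKO at every time, between 14.2 and 21.1% in WT and between 1.22 and 5.43% in mD3AKO.

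Promoters and gene bodies were also tested whole. Of the 3 genes with measured promoter CpGs, only Lrp4 passed. Over the 7 CpGs within its promoter (3 kb upstream to 1 kb downstream of the start), methylation was 6.99% ± 4.44 in WT and 1.95% ± 1.78 in mD3AKO (log2 odds ratio -2.13, SE 0.39, edgeR adjusted p = 0.00104), and 0.789% of all 9761 promoters passed. Over the 25 CpGs of the gene body it was 29.4% ± 9.48 and 26.9% ± 6.69 (log2 odds ratio -0.14, SE 0.19, adjusted p = 0.949). None of the 9 member gene bodies passed, against 1.42% of all 12391. Unadjusted p was under 0.05 in 2 of them, Chrnd and Agrn, and that share over all gene bodies was not counted. The measured CpGs of these 2 gene bodies are those of their single clusters, so the result repeats that of the clusters. For the gene bodies edgeR's likelihood ratio test also called 0.

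The other 4 Lrp4 clusters lay 19.1 to 40.5 kb downstream of the start, in coding exons and introns, and none passed. The cluster in a coding exon at 19.1 kb held 13.2% ± 9.27 in WT and 17.5% ± 10.5 in mD3AKO (log2 odds ratio 0.42, SE 0.44, adjusted p = 0.887). At 35.1 kb, where 6 CpGs were measured, the levels were 92.5% ± 4.07 and 91.7% ± 4.93. The WT means of the clusters of this gene thus ran from 3.86% at the promoter cluster to almost full here. The clusters at 36.6 and 40.5 kb stood at 56.6% ± 22.3 and 48.7% ± 31.6 in WT, and at 58.6% ± 24.6 and 46.5% ± 21.5 in mD3AKO.

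Among the receptor subunits, all 7 clusters had a lower mean in mD3AKO and none passed the test, while 2 had an unadjusted p under 0.05. Over all clusters, 62.4% had a lower mean, 1.09% passed and 9.57% had an unadjusted p under 0.05. At 1 of the 7, the Chrnb1 promoter cluster, the difference was only -0.0719 points. Over all 13 promoter CpGs of Chrnb1 the mean was 0.21 points higher in mD3AKO. Chrnd, the delta subunit, had 1 measured CpG, in a coding exon 6.8 kb downstream of the start (chr1:87197421). WT samples ran from 25% through a median of 72.2% to 100%, and mD3AKO samples from 22.5% through 50.6% to 87.5%. The groups overlapped over most of their range, although 20 of 23 mD3AKO samples were below the WT mean. The means were 69.1% ± 20.0 and 51.6% ± 16.7, the largest difference among the 17 clusters (-17.5 points, log2 odds ratio -1.25, SE 0.44, edgeR adjusted p = 0.23). Leaving out the WT animal at 10 min with 25% (88 calls) brought the adjusted p of limma to 0.0396, from 0.116 with all samples. This was the only 1 of 44 limma refits, each without 1 sample, in which Chrnd passed, and adjusted p reached 0.2 in the others.

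Chrne, the epsilon subunit of the adult receptor, had 3 measured CpGs in introns on chromosome 11. Its cluster 2.6 kb downstream of the start, shown among the sequences, ran from 21.9% through 56.8% to 86.7% in WT and from 20.6% through 49.6% to 70.7% in mD3AKO. The means were 57.9% ± 16.0 and 48.0% ± 13.6 (log2 odds ratio -0.64, SE 0.30, edgeR adjusted p = 0.492). The single CpG at 1.7 kb held 72.2% ± 24.7 and 67.1% ± 22.2.

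Chrng, the gamma subunit of the fetal receptor, had 3 CpGs in an intron 5.6 kb downstream of the start that differed among themselves more than between genotypes. The middle one held 74.0% ± 15.1 in WT and 64.1% ± 16.7 in mD3AKO, whereas the outer ones held 39.0% ± 14.8 and 30.3% ± 16.7 in WT and 30.6% ± 14.9 and 30.2% ± 20.1 in mD3AKO. As a cluster they held 47.6% ± 9.14 and 41.6% ± 8.5 (log2 odds ratio -0.34, SE 0.20, edgeR adjusted p = 0.635).

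Chrnb1, the beta subunit, was the only receptor gene with CpGs near its start. Its promoter cluster of 12 CpGs ran from 40 bases upstream of the start to 723 bases downstream. It was almost unmethylated on average, at 1.08% ± 1.01 in WT and 1.01% ± 1.70 in mD3AKO (log2 odds ratio -0.90, interval -2.15 to 0.35, edgeR adjusted p = 0.741). Single samples reached 4.32% in WT and 6.23% in mD3AKO. At the CpGs 693, 720 and 723 bases downstream, the highest mD3AKO levels were 70.3, 73 and 74.3%, against 27.4, 8.22 and 20% in WT. A further CpG 1931 bases upstream, which the table also places in the body of the neighbouring gene Fgf11, held 83.2% ± 16.7 and 79.9% ± 19.7. Chrna1, the alpha subunit that binds acetylcholine, had 1 CpG in an intron, at 37.6% ± 31.2 in WT and 29.0% ± 23.1 in mD3AKO, and single samples ran from 0 to 100% at 13 to 182 calls.

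The kinase gene Musk had 2 measured clusters in introns. The one 65.6 kb downstream of the start, shown among the sequences, had the deeper coverage, with 211 to 1027 calls in a sample. WT samples ran from 12.2% through 32.8% to 71.7%, and mD3AKO samples from 8.58% through 26.5% to 50.2%. Both CpGs had nearly the same means, 34.6 and 34.5% in WT and 26.3 and 26.4% in mD3AKO. The SD was 20.2 and 12.5 points in WT and 13.9 and 12.6 in mD3AKO. Only the first lies in CCGGAA, and whether the motif bears on methylation was not tested. The cluster did not pass (34.5% ± 15.2 against 26.4% ± 11.8, log2 odds ratio -0.62, SE 0.32, edgeR adjusted p = 0.544). The CpG at 77.6 kb was almost fully methylated, at 97.0% ± 3.92 and 96.7% ± 3.80.

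Agrn had 2 CpGs in an intron at 95.4% ± 5.34 in WT and 92.7% ± 5.06 in mD3AKO (log2 odds ratio -1.18, SE 0.58, edgeR adjusted p = 0.52). Dok7, the adaptor that sustains MuSK, had 8 CpGs 448 to 520 bases downstream of its start at 0.304% ± 0.649 in WT and 0.730% ± 1.41 in mD3AKO. The estimate was higher in mD3AKO and its interval held 0 (log2 odds ratio 1.43, interval -0.12 to 2.98, edgeR adjusted p = 0.584). One mD3AKO animal at 10 min held 6.59% on 167 calls, and without it the mD3AKO mean was 0.464% ± 0.609 (SD, n = 22). With limma the log2 odds ratio was 0.50 at a pseudocount of 1 and 0.71 at 0.5. The intronic cluster of Dok7 at 12.1 kb held 25.1% ± 12.6 and 23.8% ± 10.7.

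The run was examined at 10, 30 and 60 min. No member cluster passed the test of time (edgeR quasi-likelihood, 0% of all clusters called), nor that of the interaction of genotype and time (0%), and unadjusted p was under 0.05 at 0 of 17 in both, against 2.86 and 2.74% of all clusters. edgeR's likelihood ratio test and limma also called 0. Each time was also compared with rest within each genotype, in 6 contrasts of 17 clusters: 0 passed with edgeR or limma (0% of all clusters called with edgeR in each), and 1 of these had an unadjusted p under 0.05, Dok7 at 12.1 kb in mD3AKO at 10 min (edgeR adjusted p = 1). Over all clusters that share was 4.29, 3.17 and 3.67% in WT and 2.89, 2.8 and 3% in mD3AKO at 10, 30 and 60 min. These contrasts share the rest groups.

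Taken at each time apart, the genotype difference of the Lrp4 promoter cluster was -1.82 points at rest (2.88% in WT, 1.06% in mD3AKO), -2.66 after 10 min (4.46 and 1.79%), -3.06 after 30 min (4.42 and 1.36%) and -3.01 after 60 min (3.72 and 0.70%). The edgeR adjusted p was 1, 0.966, 0.831 and 0.203 in that order. No member cluster passed at any single time, with edgeR or limma, against 0.00588, 0.0137, 0.0176 and 0.00784% of all clusters at rest, 10, 30 and 60 min. Unadjusted p was under 0.05 at 1, 3, 2 and 1 of the 17, and at 4.69, 5.12, 5.14 and 5.23% of all clusters. The genotype difference of this cluster was not shown to change with time (interaction, edgeR adjusted p = 1).

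**Figure D5:**
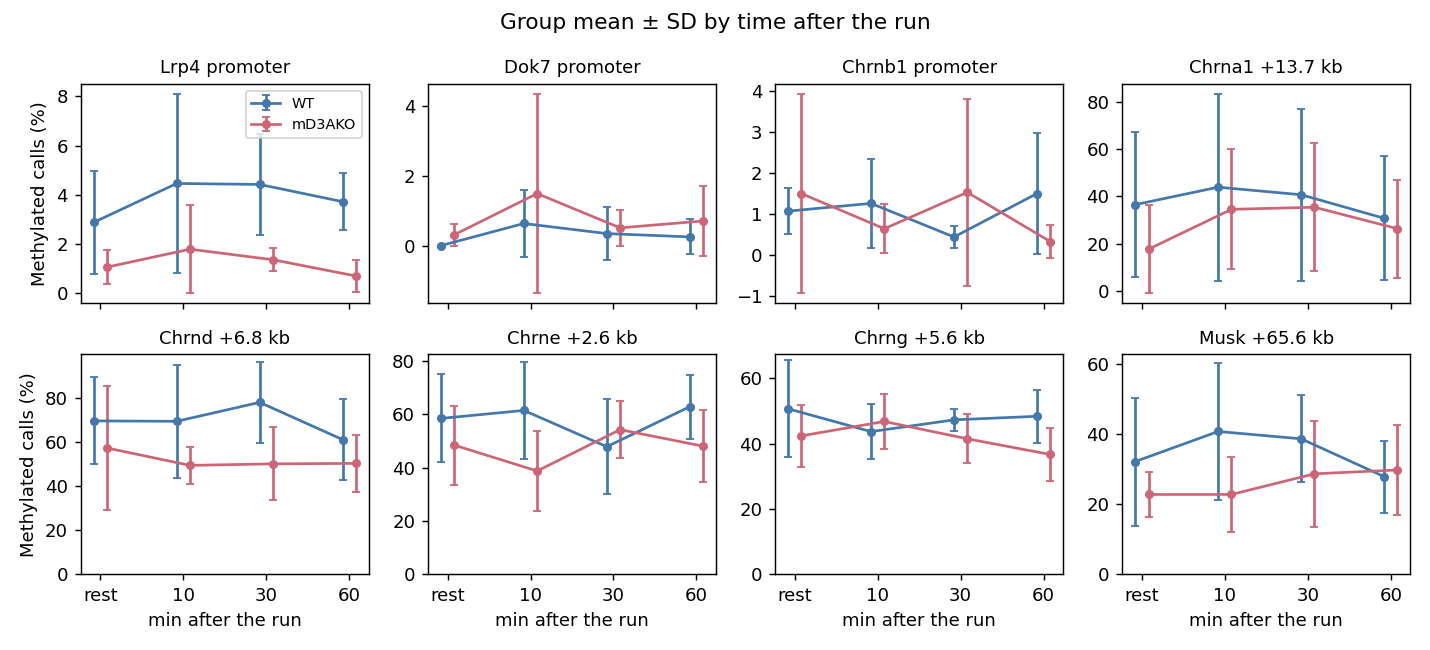
Group mean and SD of methylation (y axis, %, with a scale of its own in each panel) by time after the run (x axis) for 8 clusters in WT (blue) and mD3AKO (red). The Lrp4 promoter is lower in mD3AKO at all 4 times, and no cluster passed the test of time.

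Other genes of the synapse were counted in the same test, in which 1.09% of all clusters were called, 9.57% had an unadjusted p under 0.05 and 62.4% had a lower mean in mD3AKO. The synaptic basal lamina and acetylcholinesterase genes had 36 clusters at 6 of 8 genes. The mean was lower in mD3AKO in 29 of them, unadjusted p was under 0.05 in 4, and 1 was called, in Hspg2, the gene of perlecan, which anchors acetylcholinesterase. The called cluster held a single measured CpG, with 14 to 227 calls in a sample. Methylation there was 28.8% ± 17.1 in WT and 6.83% ± 9.02 in mD3AKO (log2 odds ratio -2.92, SE 0.61, edgeR adjusted p = 0.00546). The MuSK effector and postsynaptic scaffold genes had 65 clusters at 23 of 26 genes. The mean was lower in 39 of them, unadjusted p was under 0.05 in 10, and 2 were called, both lower in mD3AKO, 1 in Macf1, a microtubule and actin linker, at 10.3% ± 5.06 against 3.66% ± 2.35 (adjusted p = 0.0104), and 1 in Dtna, which encodes alpha-dystrobrevin, at 14.5% ± 7.15 against 5.88% ± 3.46 (adjusted p = 0.0227). None passed among the 38 clusters of the neuregulin-ErbB and ETS factor genes, the 31 of denervation and activity genes, the 6 of glycosylation genes of congenital myasthenia, the 28 of motor nerve terminal genes and the 14 of neuronal nicotinic receptor genes, where unadjusted p was under 0.05 at 1, 4, 0, 3 and 0. The median difference was -0.102, -2.69, -0.306, -0.428 and -0.0194 points in these lists, and -1.41 and -0.493 in the basal lamina and the scaffold lists, beside -0.455 over all clusters. These lists too were not matched to all clusters for level.

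Markers of the cells in the muscle were read in the same way. Those of the myofibre had 13 clusters at 6 of 8 genes, with 0 called and a median difference of 0.00881 points, and those of Schwann cells had 13 at 3 of 6 genes, with 0 called and a median difference of -0.773 points (edgeR's unadjusted p was under 0.05 at 1 cluster in each). The 10 other non-myofibre markers had 20 clusters at 4 genes, with a median difference of -4.48 points and a lower mean in mD3AKO in 15. Unadjusted p was under 0.05 in 8 of the 20 and 4 were called (20%, against 1.09% of all clusters), all lower in mD3AKO and all at Pax7, the transcription factor of satellite cells. The study itself reports lower methylation at Pax7 in mD3AKO soleus, EDL and quadriceps, and the list was chosen with earlier results known. The share of 20% therefore describes 1 gene and is not a test of the list or of a cell type. The 4 fell by 4.34 to 18.2 points, and the cluster with the largest fall held 29.1% ± 11.1 in WT and 10.9% ± 7.87 in mD3AKO. The part of other cell types in the Lrp4 difference was not tested.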

How the data were processed

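Reduced representation bisulfite sequencing of soleus DNA was deposited as counts: per the file headers, the methylated and unmethylated calls of each CpG in each of 44 samples, with the gene promoter, gene body and cluster the authors gave it. Per the submitters' processing notes, Trim Galore 0.4.0, cutadapt 1.9.1, Bismark 0.18.1 and mm10 were used; per the study's methods, both strands were added, CpGs with under 8 calls in any sample and chromosomes X, Y and M were left out, promoters ran from 3 kb upstream to 1 kb downstream of a start, and clusters joined CpGs no more than 100 bp apart. The other 6 samples of the series were not analysed here; 1 of them has conflicting genotype labels. No further sample column was left unused (0).

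Counts were modelled in edgeR 4.0.16 (R 4.3.3) with a coefficient for every sample and a methylation coefficient for each of 8 groups of genotype and time, a common dispersion and the quasi-likelihood F test, with Benjamini-Hochberg adjustment over all clusters, promoters, gene bodies or CpGs; an adjusted p under 0.05 was called. A log2 odds ratio compares mD3AKO with WT, and its SE was taken as its size over the square root of F. On simulated counts for 5104 clusters, of which 200 were changed, the genotype test recovered 30% of those changed by 1 log2 unit and 83% of those changed by 2, with 8 false calls. The changed clusters were drawn only from those of intermediate level. The recovery therefore does not cover almost unmethylated or almost fully methylated clusters, such as the promoter clusters of Lrp4, Chrnb1 and Dok7. Alternatives were edgeR's likelihood ratio test, limma 3.58.1 on log2 ratios of calls (pseudocount 1 or 0.5), a minimum of 20 calls, sex as a term, clusters of at least 3 CpGs, and each sample left out in turn. Levels are percentages of calls, and p-values weigh a difference against the spread between animals within groups. All 10 genes were to be described (Rapsn had no CpG), each by its promoter clusters and its clusters of lowest p and largest difference; of the other genes, those with a called cluster were named. Members, gene lists and tests were chosen with earlier results of these data known. Positions within genes are from GENCODE M21.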

Additional observations from a re-analysis of the deposited data

Results flagged for a closer look

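In each of the 136 combinations of cluster and group, the highest and lowest animal was compared with the next one by Dixon's test. In all, 16 values stood apart. For normally spread values, chance gives about 1 in 20 combinations, or 6.8. These levels are bounded, and in some Dok7 promoter groups most animals were at 0, so 6.8 is not a sound expectation here and no excess is claimed. At the promoters with levels near 0, the Dok7 promoter had 2.30%, 1.72% and 1.26% in WT animals of the 10, 30 and 60 min groups, and 6.59% in an mD3AKO animal of the 10 min group, and the Chrnb1 promoter had 3.16% (WT, 10 min), 4.32% (WT, 60 min) and 5.82% (mD3AKO, rest). The Lrp4 promoter had 4.93% in 1 mD3AKO animal at 10 min, where the next had 1.48%.

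Among gene body clusters, Chrnd had 25% in WT animal 30 at 10 min, next to 71.7%, and Chrng 64.1% in WT animal 25 at 60 min, next to 48.7%. Dok7 at 12.1 kb had 41.7% (WT, 30 min) and 56.9% (WT, 60 min), Lrp4 at 35.1 kb 96.7% (WT, rest), Lrp4 at 40.5 kb 5.88% (mD3AKO, rest), Musk at 77.6 kb 88.1% (WT, 60 min) and the CpG upstream of Chrnb1 10.0% (mD3AKO, 60 min).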

How the results depend on the processing

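The number of member clusters called for genotype was 1 under each of the 6 alternative tests and filters, and between 1 and 2 when each sample was left out in turn with limma; the second was Chrnd, without the WT animal 30 at 10 min. The Lrp4 promoter cluster was called in 44 of 44 such refits, with log2 odds ratios from -1.92 to -1.68 and adjusted p from 0.000141 to 0.00104. Time and the interaction gave 0 under the likelihood ratio test, limma with a pseudocount of 1, the minimum of 20 calls, sex as a term and the 3-CpG filter (samples were not left out for these), and limma, chosen here after seeing the data, gave 0 at single times and against rest. Member CpGs called were 2 with edgeR and 3 with limma. Estimates of clusters that were not called changed sign in 5 cases under the other tests and filters: with at least 20 calls per CpG, Chrnb1 promoter 0.29, Lrp4 at 35.1 kb 0.14 and Dok7 at 12.1 kb 0.17; with limma, Lrp4 at 40.5 kb -0.02 (pseudocount 1) and Musk at 77.6 kb -0.00 (pseudocount 0.5). On leaving out 1 sample, 26 of 44 limma refits of Lrp4 at 40.5 kb, 9 of Musk at 77.6 kb and 3 of Lrp4 at 35.1 kb had the other sign. The minimum of 20 calls left 28165 clusters with 10 of the members, and the 3-CpG filter 21536 with 7, which have fewer CpGs or clusters by construction. Over all clusters, the likelihood ratio test called 1414 and limma 895, against 557. No paired analysis was possible because every animal has its own number. Clusters of 1 CpG (6 of 17) had as few as 9 calls in a sample, and the SD between animals there reached 31.6 points.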
